A study of Homo sapiens with 12 samples.

Results

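The mitochondrial unfolded protein response genes described here are 10 genes chosen by name. They are the matrix chaperone genes HSPD1, HSPE1, HSPA9 and DNAJA3, the matrix protease genes CLPP, CLPX and LONP1, the inner membrane protease genes AFG3L2 and YME1L1, and the transcription factor gene ATF5. All 10 were among the 15781 genes listed for both cell lines, and all 10 passed the filter on low counts in each line. Poly-A RNA was sequenced in 12 libraries from HepG2 and Huh7 cells, established human lines that the labels give as hepatocellular carcinoma. The groups were HepG2 with UBL5 siRNA (labelled UBL5 knockdown), HepG2 with a nontarget Ctrl-siRNA (labelled WT), Huh7 with UBL5 siRNA and Huh7 with Ctrl-siRNA, with 3 libraries each. All cells had been transfected with Lipofectamine RNAiMAX, and the labels give 52 h, whereas a legend of the study gives a shorter time. The study's reagent list names 1 siRNA against UBL5, so an effect of that oligonucleotide on other transcripts cannot be told apart from loss of UBL5. No source used here says whether the 3 libraries of a group came from separate transfections, so the p-values describe variation among these libraries, which may be technical.

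The mitochondrial unfolded protein response is a program by which a cell whose mitochondria hold misfolded or unassembled proteins raises nuclear genes for mitochondrial chaperones and proteases. In the worm Caenorhabditis elegans, the homolog of UBL5 acts with a homeodomain protein to turn on the hsp-60 chaperone gene, and the transcription factor ATFS-1 carries the signal from mitochondria to nucleus. In mammals, ATF5 is regarded as the counterpart of ATFS-1, and the factors ATF4 and CHOP act alongside it. The comparison of UBL5 siRNA with Ctrl-siRNA asks how the mRNA of these genes stands in human cells that have lost UBL5.

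UBL5 mRNA was low in every library labelled UBL5 siRNA. In HepG2 it stood at 6.88, 4.31 and 2.80 CPM (counts-per-million, scaled within a line by the TMM method) with UBL5 siRNA, against 60.4, 55.5 and 58.7 CPM with Ctrl-siRNA. In Huh7 the values were 6.45, 6.67 and 5.80 CPM with UBL5 siRNA and 68.1, 70.8 and 67.1 CPM with Ctrl-siRNA. HepG2 libraries held 19983681 to 24245412 gene counts with UBL5 siRNA and 23672962 to 29744471 with Ctrl-siRNA. Huh7 libraries held 20710925 to 22126273 with UBL5 siRNA and 19469574 to 27158770 with Ctrl-siRNA. Libraries of HepG2 varied more than those of Huh7, with a biological coefficient of variation of 0.189 in HepG2 and 0.0663 in Huh7. HepG2 Ctrl-siRNA replicate 3 stood apart, with 1773 listed genes at 0 against 159 to 233 in the other HepG2 libraries. The share of counts from mitochondrially encoded genes in HepG2 was 2.75% to 3.61% with UBL5 siRNA, against 1.91% to 2.35% with Ctrl-siRNA. In Huh7 it was 2.66% to 3.72% with UBL5 siRNA, against 2.46% to 3.30% with Ctrl-siRNA, and its part in the results was not tested. All 8 hepatocyte lineage markers exceeded 1 CPM in every library of both lines. Of 6 fibroblast markers, 2 did so in HepG2 and 3 in Huh7, and of 6 endothelial markers 1 did so in HepG2 and 0 in Huh7. The leukocyte markers PTPRC, CD3E and CD68 and the endothelial markers VWF, KDR, TEK and EMCN were listed in neither line. Of the 6 leukocyte markers LYZ alone exceeded 1 CPM in every library, and the summed list stood at 968 to 1212 CPM with UBL5 siRNA against 1686 to 2218 CPM with Ctrl-siRNA in HepG2, and at 324 to 341 CPM with UBL5 siRNA against 576 to 591 CPM with Ctrl-siRNA in Huh7. The summed fibroblast list in HepG2 stood at 9.96 to 26.0 CPM with UBL5 siRNA, against 8.05 to 14.1 CPM with Ctrl-siRNA, and in Huh7 at 17.5 to 30.1 CPM with UBL5 siRNA, against 32.4 to 36.6 CPM with Ctrl-siRNA. The summed endothelial list in HepG2 stood at 2.87 to 6.15 CPM with UBL5 siRNA, against 3.75 to 6.51 CPM with Ctrl-siRNA, and in Huh7 at 0.0479 to 0.633 CPM with UBL5 siRNA, against 0.0514 to 0.684 CPM with Ctrl-siRNA. The summed marker lists are CPM of raw gene counts, without TMM scaling. The part of these markers in the results was not tested.

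With UBL5 siRNA, some of the 10 genes rose and others fell. In HepG2, 2 genes rose (HSPE1 and CLPP), 3 fell (LONP1, DNAJA3 and ATF5) and 5 did not pass the test, with a median log2 fold change of 0.13. In Huh7, 7 genes rose (HSPD1, HSPE1, HSPA9, CLPP, CLPX, AFG3L2 and YME1L1) and the same 3 genes fell, with a median log2 fold change of 0.42. Calls rest on the quasi-likelihood F test of edgeR at an adjusted p under 0.05. Of all genes tested, 16.4% were called higher and 20% lower in HepG2, and 34.7% were called higher and 36.4% lower in Huh7. Calls in both directions were thus not particular to these 10 genes, and their HepG2 counts lie near the HepG2 shares. The medians over all genes tested were 0.01 in HepG2 and -0.01 in Huh7. Thus 5 of the 10 genes were called in one direction in both lines, where 30.5% of all genes tested in both lines were. The UBL5 siRNA and Ctrl-siRNA libraries did not overlap for 8 of the 10 genes in HepG2 and for 9 of the 10 in Huh7, against 53% of all genes tested in HepG2 and 73.9% in Huh7. Sums over the 10 genes are CPM of raw gene counts, without the TMM scaling used for single genes, and TMM-scaled sums were not taken. The 10 genes together summed to 3114 to 3273 CPM with UBL5 siRNA and 3035 to 3286 CPM with Ctrl-siRNA in HepG2. Their sum in Huh7 was 2660 to 2760 CPM with UBL5 siRNA and 2244 to 2325 CPM with Ctrl-siRNA. These are shares of bulk RNA, in which fewer cells that express a gene and less RNA per cell cannot be told apart.

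**Figure D1:**
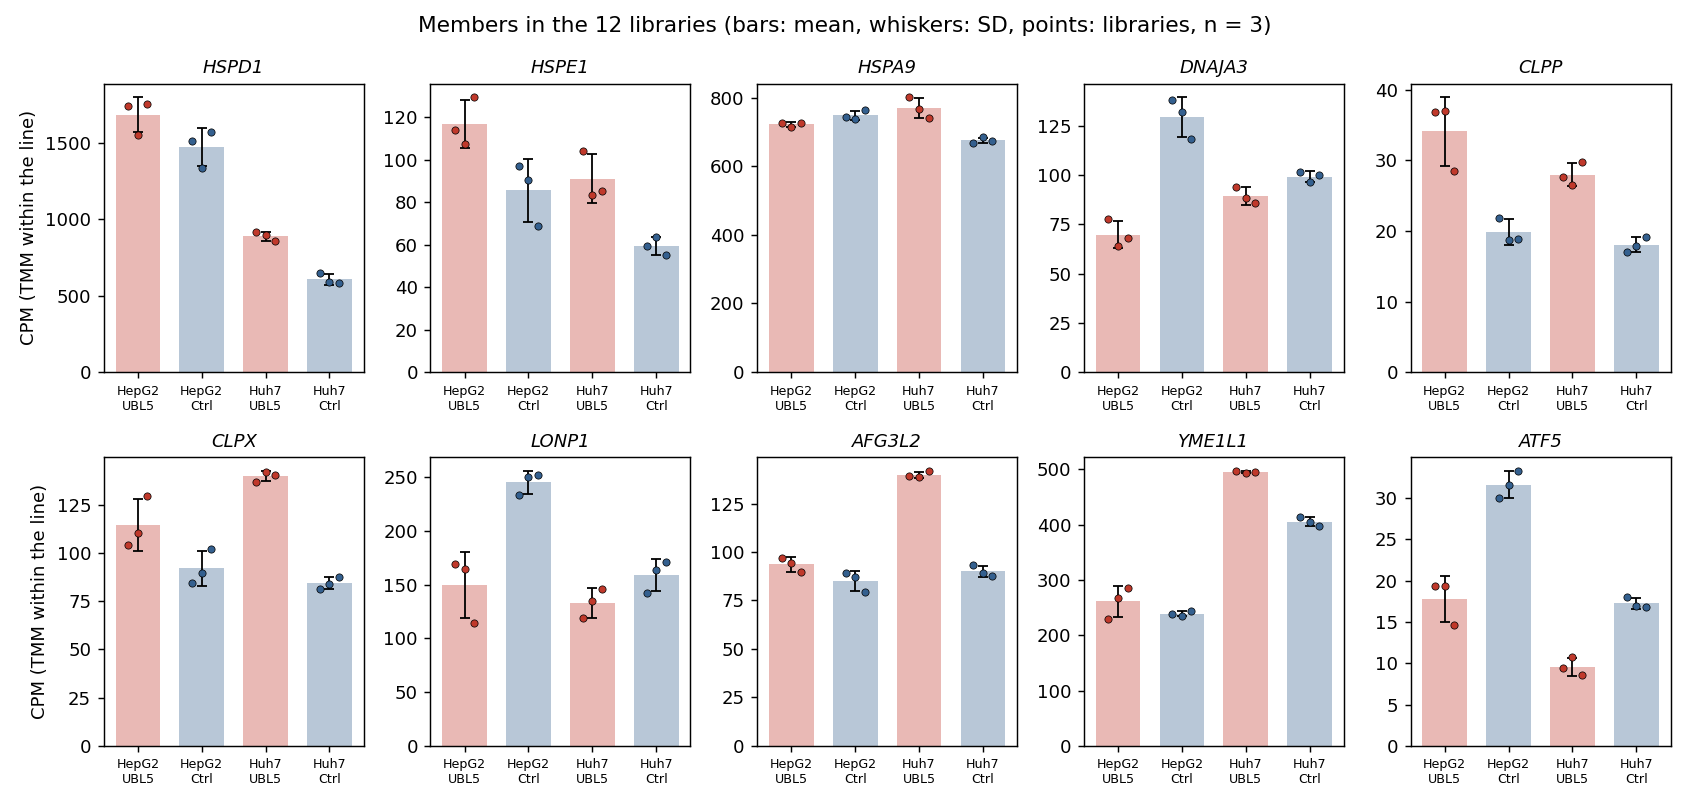
Level of each gene in CPM (vertical axis, from 0) in HepG2 and Huh7 cells with UBL5 siRNA (red) or Ctrl-siRNA (blue). Bars give the mean and whiskers the SD of 3 libraries, which are the points. ATF5 and LONP1 bars are lower with UBL5 siRNA in both lines, CLPP and HSPE1 bars are higher, and the AFG3L2 bars stand well apart in Huh7 but not in HepG2.

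HSPD1 encodes HSP60, the subunit of the barrel-shaped chaperonin that folds proteins in the mitochondrial matrix, and HSPE1 encodes HSP10, the lid of that barrel. The genes lie head to head on chromosome 2 of GRCh38, HSPD1 on the minus strand at chr2:197486584-197516737 with 12 exons in its main transcript and HSPE1 on the plus strand at chr2:197500140-197503449 with 4 exons. RefSeq promoter windows of GRCh38.p14, which run from 250 bases before a start site to 50 bases from it on, were at hand for 8 of the 10 genes. The HSPD1 and HSPE1 windows below are shown because the pair shares an upstream region. The start sites of their main transcripts lie 539 bases apart, and the windows shown have 0 bases in common. A second HSPD1 start site lies 105 bases from that of HSPE1. Its window is not shown and has 204 bases in common with the HSPE1 window. In the HSPD1 window, capitals mark bases 6 to 23, a run of overlapping heat shock factor letters (TTCNNGAA at bases 6 and 16, GAANNTTC at base 11). In the HSPE1 window, capitals mark the E box letters CACGTG at base 229. The HSPD1 window that is not shown also holds these letters, at base 163.
HSPD1, chr2:197499791-197500090, minus strand: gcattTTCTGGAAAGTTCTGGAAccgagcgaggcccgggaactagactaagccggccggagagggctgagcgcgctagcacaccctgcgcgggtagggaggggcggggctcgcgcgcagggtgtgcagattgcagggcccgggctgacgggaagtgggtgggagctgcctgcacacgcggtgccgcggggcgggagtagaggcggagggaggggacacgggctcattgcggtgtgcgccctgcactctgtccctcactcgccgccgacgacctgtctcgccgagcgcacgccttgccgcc
HSPE1, chr2:197500129-197500428, plus strand: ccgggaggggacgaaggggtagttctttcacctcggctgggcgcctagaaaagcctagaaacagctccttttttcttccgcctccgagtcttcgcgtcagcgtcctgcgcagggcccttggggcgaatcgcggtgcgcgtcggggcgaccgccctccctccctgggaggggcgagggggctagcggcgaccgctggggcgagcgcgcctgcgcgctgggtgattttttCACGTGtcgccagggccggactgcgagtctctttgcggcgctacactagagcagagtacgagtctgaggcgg
On either strand, TTCNNGAA occurred in 7.74%, GAANNTTC in 6.77% and CACGTG in 7.26% of all 35116 windows of this length. A match of letters is a description and not a binding site.

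HSPD1 had 1739.9, 1548 and 1753 CPM in HepG2 with UBL5 siRNA, against 1513, 1333 and 1568 CPM with Ctrl-siRNA. The lowest UBL5 siRNA library lay below the highest Ctrl-siRNA library, so the groups overlapped. The log2 fold change of HSPD1 was 0.19 with a standard error of 0.0887 (adjusted p = 0.126), a ratio of 1.14. With the replicate number as a block, which pairs the HepG2 libraries, the log2 fold change was 0.19 with an adjusted p of 0.032. In Huh7, HSPD1 had 913, 896 and 856 CPM with UBL5 siRNA, against 648, 589 and 581 CPM with Ctrl-siRNA. Here every UBL5 siRNA library was above every Ctrl-siRNA library, and HSPD1 was 1.47-fold higher (log2 fold change 0.55, standard error 0.0511, adjusted p = 1.45e-07).

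HSPE1 rose in both lines. It had 114, 107 and 129 CPM in HepG2 with UBL5 siRNA, against 97.3, 90.7 and 68.8 CPM with Ctrl-siRNA, the lowest value being that of Ctrl-siRNA replicate 3. The groups did not overlap, and HSPE1 was 1.37-fold higher, a log2 fold change of 0.45 with a standard error of 0.136 (adjusted p = 0.0307). Without both HepG2 libraries numbered 3, the log2 fold change of HSPE1 was 0.25 (adjusted p = 0.0498), and leaving out UBL5 siRNA replicate 1 or 3 or Ctrl-siRNA replicate 2 gave adjusted p-values of 0.0619, 0.0763 and 0.062. In Huh7, HSPE1 had 104, 83.2 and 85.5 CPM with UBL5 siRNA, against 59.4, 63.6 and 55.1 CPM with Ctrl-siRNA, a 1.53-fold higher level (log2 fold change 0.62, standard error 0.0883, adjusted p = 0.000105). Both genes have processed pseudogenes that resemble them. Reads given to listed pseudogenes came to 10.6% to 11.9% of the HSPD1 reads and pseudogene reads combined in HepG2 and 10.6% to 11.6% in Huh7. For HSPE1 this share was 24.9% to 31% in HepG2 and 23.5% to 28.3% in Huh7. Adding those reads to the genes changed no call (HSPD1 adjusted p = 0.125 and HSPE1 adjusted p = 0.0241 in HepG2). In addition, 10.5% of HSPE1 exon bases are shared with the readthrough gene HSPE1-MOB4 on the same strand, so its reads are uncertain to that degree.

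The ratio of barrel to lid mRNA was compared as well, in a design too small for its test to pass a threshold of 0.05. The ratio of HSPD1 to HSPE1, in CPM per kilobase of exon, averaged 3.44 ± 0.204 in HepG2 with UBL5 siRNA and 4.22 ± 1.06 with Ctrl-siRNA (SD, n = 3 each). An exact two-sided permutation test gave p = 0.2, where 3 libraries against 3 cannot give a p below 0.1. Ctrl-siRNA replicate 3 alone had a ratio of 5.44, and the other 2 Ctrl-siRNA libraries had 3.71 and 3.51. Paired by replicate number, the HepG2 ratio was lower with UBL5 siRNA in all 3 pairs, at 3.65 against 3.71, 3.44 against 3.51 and 3.24 against 5.44. In Huh7 the ratio averaged 2.35 ± 0.242 with UBL5 siRNA and 2.45 ± 0.209 with Ctrl-siRNA (SD, n = 3 each, exact permutation p = 0.6). By replicate number the Huh7 direction was mixed, at 2.09 against 2.61, 2.57 against 2.21 and 2.39 against 2.52. The differences within pairs were not tested in either line.

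HSPA9 encodes mortalin, the matrix HSP70 that pulls incoming proteins through the import channel and folds them. It lies on chromosome 5 at chr5:138553756-138575675 on the minus strand, with 17 exons. HSPA9 had 727, 715 and 727 CPM in HepG2 with UBL5 siRNA, against 744, 739 and 764 CPM with Ctrl-siRNA. Every UBL5 siRNA value was the lower, yet by only a log2 fold change of -0.05 with a standard error of 0.0645 (adjusted p = 0.575). In Huh7, HSPA9 rose, with 801, 767 and 742 CPM with UBL5 siRNA against 669, 684 and 674 CPM with Ctrl-siRNA (log2 fold change 0.19, standard error 0.0449, adjusted p = 0.00157). This 1.14-fold rise was the smallest of the 7 in Huh7.

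DNAJA3 encodes a mitochondrial J-domain protein, known as TID1, that hands substrates to mortalin and stimulates its ATP cycle. It fell in both lines, whereas HSPA9 was called lower in neither. DNAJA3 had 77.6, 63.8 and 68.1 CPM in HepG2 with UBL5 siRNA, against 138, 132 and 118 CPM with Ctrl-siRNA. The level with UBL5 siRNA was 0.539 times that with Ctrl-siRNA (log2 fold change -0.89, standard error 0.103, adjusted p = 0.000408), the largest fall of the 10 genes in HepG2. In Huh7, DNAJA3 had 94.2, 88.4 and 85.6 CPM with UBL5 siRNA, against 101, 96.3 and 100.1 CPM with Ctrl-siRNA. The groups did not overlap there either, but the fall was to 0.9 times the Ctrl-siRNA level (log2 fold change -0.15, standard error 0.0515, adjusted p = 0.0162). The Huh7 call was lost with the Wald test of DESeq2 (adjusted p = 0.0585), in the fit over 12 libraries (adjusted p = 0.082), and without UBL5 siRNA replicate 2 or 3 (adjusted p = 0.0884 and 0.0927).

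The promoter windows of DNAJA3 and LONP1 are shown next, since these genes fell in both lines. DNAJA3 lies on chromosome 16 at chr16:4425805-4456775 on the plus strand with 12 exons, and LONP1 on chromosome 19 at chr19:5691834-5720572 on the minus strand with 18 exons. Capitals mark the core letters of nuclear respiratory factor NRF1 (GCATGCGC) at base 183 and a CCAAT box at base 38 in the DNAJA3 window, where the box stands reversed. In the LONP1 window they mark E box letters (CACGTG) at bases 39 and 202. A second LONP1 window, for a start site 306 bases away, held 4 matches of the NRF1 core letters and is not shown. E box letters also occurred in the windows of HSPE1 and HSPA9, which rose in Huh7, so they do not set apart the genes that fell.
DNAJA3, chr16:4425618-4425917, plus strand: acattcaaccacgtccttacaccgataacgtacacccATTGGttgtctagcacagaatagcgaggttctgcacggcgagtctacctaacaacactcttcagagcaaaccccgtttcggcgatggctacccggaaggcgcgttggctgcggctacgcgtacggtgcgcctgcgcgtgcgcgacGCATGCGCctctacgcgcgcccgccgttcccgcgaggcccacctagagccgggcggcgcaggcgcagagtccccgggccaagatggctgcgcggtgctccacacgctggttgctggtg
LONP1, chr19:5720097-5720396, minus strand: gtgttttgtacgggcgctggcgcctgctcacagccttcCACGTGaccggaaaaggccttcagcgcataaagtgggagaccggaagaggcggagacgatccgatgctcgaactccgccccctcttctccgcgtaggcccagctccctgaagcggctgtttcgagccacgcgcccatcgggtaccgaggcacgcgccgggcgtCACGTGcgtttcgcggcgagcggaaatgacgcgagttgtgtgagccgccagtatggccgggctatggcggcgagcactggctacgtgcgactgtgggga
GCATGCGC occurred in 3.05%, CCAAT in 34.6% and CACGTG in 7.26% of the 35116 windows. The letters TGATGNAA, a form of the site that C/EBP and ATF4 pairs bind, were in none of the windows of the 8 genes, against 3.62% of all windows.

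CLPP encodes the proteolytic chamber of the matrix ClpXP protease and CLPX its ATP-driven unfoldase. CLPP lies on chromosome 19 at chr19:6361531-6370242 on the plus strand with 6 exons, and CLPX on chromosome 15 at chr15:65148219-65185342 on the minus strand with 14 exons. CLPP had 36.8, 37.0 and 28.5 CPM in HepG2 with UBL5 siRNA, against 21.9, 18.7 and 18.9 CPM with Ctrl-siRNA. This was a 1.72-fold rise (log2 fold change 0.78, standard error 0.141, adjusted p = 0.00308), the largest of the 10 genes in HepG2. In Huh7, CLPP had 27.6, 26.5 and 29.8 CPM with UBL5 siRNA, against 17.02, 17.9 and 19.2 CPM with Ctrl-siRNA (1.55-fold, log2 fold change 0.64, standard error 0.0786, adjusted p = 3.35e-06). CLPP was thus separated between the siRNAs in all libraries of both lines.

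CLPX had 104, 110.1 and 129 CPM in HepG2 with UBL5 siRNA, against 84.1, 89.6 and 102 CPM with Ctrl-siRNA. The groups did not overlap, but the libraries within each spread widely, and the log2 fold change of 0.32 with a standard error of 0.112 missed the threshold (adjusted p = 0.0549). With the replicate number as a block its adjusted p was 0.00791, and over the 15 alternatives it ran from 0.00791 to 0.161, with 10 of them past the threshold. In Huh7, CLPX had 137, 142 and 141 CPM with UBL5 siRNA, against 81.2, 83.9 and 87.7 CPM with Ctrl-siRNA. This was the largest rise of the 10 genes in Huh7 (1.66-fold, log2 fold change 0.73, standard error 0.0485, adjusted p = 3.45e-09).

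The ratio of CLPX to CLPP per kilobase of exon was compared in the same way. It averaged 2.23 ± 0.612 in HepG2 with UBL5 siRNA and 3.03 ± 0.509 with Ctrl-siRNA (SD, n = 3 each, exact permutation p = 0.2). The log2 change in HepG2 was -0.46, and it ran from -0.68 to -0.33 when single libraries were left out. Paired by replicate number, the HepG2 ratio was lower with UBL5 siRNA in all 3 pairs, at 1.82 against 2.48, 1.93 against 3.10 and 2.93 against 3.49. Set side by side in the same way, the Huh7 ratio was higher with UBL5 siRNA in all 3, at 3.20 against 3.08, 3.45 against 3.03 and 3.05 against 2.96. The differences within pairs were not tested. In Huh7 it averaged 3.24 ± 0.202 with UBL5 siRNA and 3.02 ± 0.0621 with Ctrl-siRNA (SD, n = 3 each, exact permutation p = 0.2). The smallest p this design allows is 0.1, so these values do not show that the ratios were equal.

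LONP1 encodes the Lon protease of the matrix, which removes oxidized and misfolded proteins and binds mitochondrial DNA. Unlike the ClpXP genes it fell. LONP1 had 169.6, 165 and 114 CPM in HepG2 with UBL5 siRNA, against 233, 250.5 and 252 CPM with Ctrl-siRNA. UBL5 siRNA replicate 3 was the lowest library, and the level with UBL5 siRNA was 0.61 times that with Ctrl-siRNA (log2 fold change -0.71, standard error 0.141, adjusted p = 0.00485). Without both HepG2 libraries numbered 3 the log2 fold change was -0.52 (adjusted p = 0.000952). In Huh7, LONP1 had 119, 135 and 146 CPM with UBL5 siRNA, against 142, 163 and 171 CPM with Ctrl-siRNA. The highest UBL5 siRNA library lay above the lowest Ctrl-siRNA library, and the log2 fold change was -0.25 with a standard error of 0.0893 (adjusted p = 0.0316). That call was lost in the fit over 12 libraries (adjusted p = 0.0808), without Ctrl-siRNA replicate 2 or 3 (adjusted p = 0.0869 and 0.0748) and without UBL5 siRNA replicate 1 or 2 (adjusted p = 0.0782 and 0.0693), and without UBL5 siRNA replicate 1 the log2 fold change was -0.16.

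AFG3L2 encodes a subunit of the m-AAA protease and YME1L1 the i-AAA protease, ATP-driven enzymes that face opposite sides of the inner mitochondrial membrane. AFG3L2 lies on chromosome 18 at chr18:12328944-12377227 on the minus strand with 17 exons, and YME1L1 on chromosome 10 at chr10:27110111-27155266 on the minus strand with 19 exons. AFG3L2 had 97.1, 94.2 and 89.5 CPM in HepG2 with UBL5 siRNA, against 89.0, 87.1 and 79.3 CPM with Ctrl-siRNA. These values barely separated, and the log2 fold change of 0.14 with a standard error of 0.0848 did not pass the test (adjusted p = 0.243). In Huh7, AFG3L2 had 139, 138 and 142 CPM with UBL5 siRNA, against 93.2, 89.2 and 87.4 CPM with Ctrl-siRNA. The 1.55-fold rise in Huh7 (log2 fold change 0.63, standard error 0.0471, adjusted p = 1.2e-08) came with little spread in either group.

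YME1L1 had 229.98, 267 and 286 CPM in HepG2 with UBL5 siRNA, against 239, 234 and 245 CPM with Ctrl-siRNA. UBL5 siRNA replicate 1 lay below all 3 Ctrl-siRNA libraries, and the log2 fold change was 0.13 with a standard error of 0.0909 (adjusted p = 0.32). In Huh7, YME1L1 had 497, 493 and 496 CPM with UBL5 siRNA, against 414, 405 and 398 CPM with Ctrl-siRNA (1.22-fold, log2 fold change 0.29, standard error 0.0423, adjusted p = 2.02e-05). Reads of AFG3L2 could be mixed with those of TUBB6, which covers 11.7% of its exon bases on the other strand, and reads of YME1L1 with those of MASTL, which covers 6.04%, because the strand setting of the counting is not given in the sources used here.

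ATF5 encodes the leucine zipper transcription factor that is thought to enter healthy mitochondria and that, in cultured mammalian cells under mitochondrial stress, turns on chaperone and protease genes including HSPD1 and LONP1. It fell in both lines. LONP1 was also called lower in both, with a Huh7 call that several alternatives lost, whereas HSPD1 was called lower in neither. ATF5 had 19.4, 19.4 and 14.6 CPM in HepG2 with UBL5 siRNA, against 30.02, 31.6 and 33.3 CPM with Ctrl-siRNA. In Huh7 it had 9.41, 10.8 and 8.54 CPM with UBL5 siRNA, against 18.0, 16.9 and 16.8 CPM with Ctrl-siRNA. The groups stood far apart in each line, at 0.563 times the Ctrl-siRNA level in HepG2 (log2 fold change -0.83, standard error 0.141, adjusted p = 0.00233) and 0.554 times in Huh7 (log2 fold change -0.85, standard error 0.0996, adjusted p = 1.83e-06). ATF5 had 184 to 1001 reads per library, and its 3 exons at chr19:49928702-49933935 share 19.5% of their bases with IL4I1 and NUP62 on the other strand. The ATF5 window is shown because the gene fell by similar amounts in both lines, and none of the letters searched occurred in it.
ATF5, chr19:49928955-49929254, plus strand: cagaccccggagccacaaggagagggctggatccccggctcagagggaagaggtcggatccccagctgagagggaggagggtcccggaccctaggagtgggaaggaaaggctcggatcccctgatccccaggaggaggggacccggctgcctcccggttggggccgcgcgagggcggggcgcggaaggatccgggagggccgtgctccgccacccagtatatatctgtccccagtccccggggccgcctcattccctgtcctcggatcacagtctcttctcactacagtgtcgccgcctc
The fall of ATF5 did not depend on a single library, since its log2 fold change ran from -0.89 to -0.66 over 15 alternatives in HepG2 and from -0.93 to -0.77 over 14 in Huh7, with every adjusted p under 0.05.

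**Figure D2:**
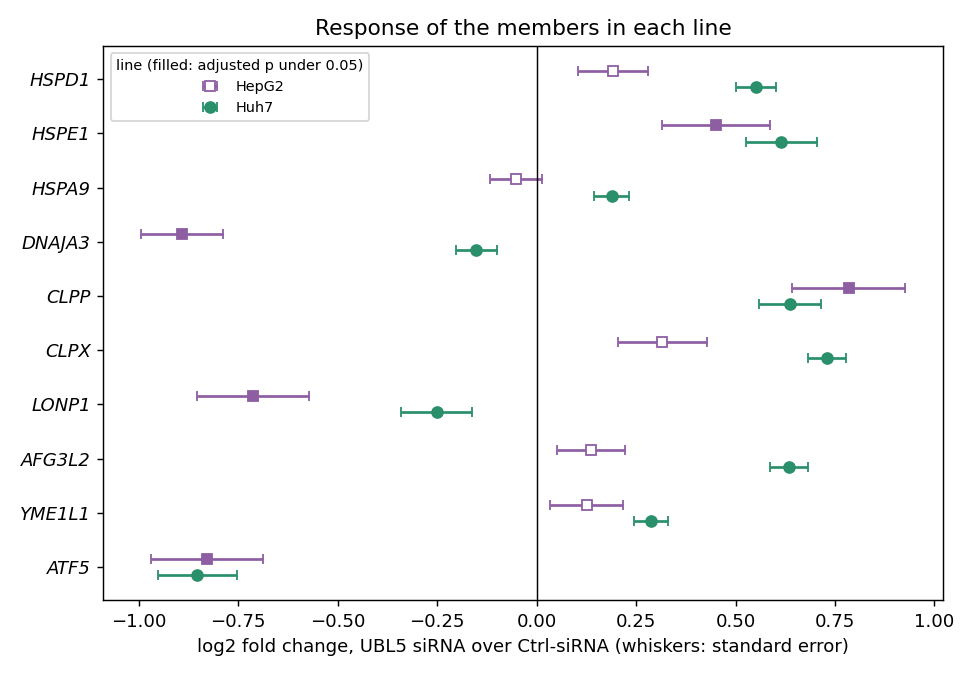
Log2 fold change of each gene with UBL5 siRNA over Ctrl-siRNA (horizontal axis) with its standard error, in HepG2 (squares) and Huh7 (circles). Filled symbols passed the edgeR test at an adjusted p under 0.05. DNAJA3 sits at -0.89 in HepG2 and -0.15 in Huh7, AFG3L2 at 0.14 in HepG2 and 0.63 in Huh7, and ATF5 at -0.83 in HepG2 and -0.85 in Huh7.

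The response differed between the lines for 4 of the 10 genes in a test of the difference itself, and each time the HepG2 change lay below the Huh7 change. Of all genes tested, 21.6% differed in either direction, and the median difference over all genes tested was 0.01. How the genes that differed divide by direction was not counted. The HepG2 minus Huh7 difference in log2 fold change was -0.71 for DNAJA3 (standard error 0.113, adjusted p = 0.000779), which fell further in HepG2. It was -0.47 for AFG3L2 (standard error 0.0868, adjusted p = 0.00208), which rose in Huh7. For HSPD1 it was -0.33 (standard error 0.11, adjusted p = 0.0461) and for CLPX -0.39 (standard error 0.129, adjusted p = 0.0484). The HSPD1 and CLPX differences were near the threshold, and both were lost with the size factors of DESeq2 (adjusted p = 0.057 for HSPD1 and 0.0612 for CLPX) and with upper-quartile scaling (adjusted p = 0.105 for HSPD1 and 0.102 for CLPX). Leaving out single libraries lost the HSPD1 difference in 8 of 12 cases (adjusted p up to 0.122, without Huh7 Ctrl-siRNA replicate 3) and the CLPX difference in 10 of 12 (up to 0.114, without Huh7 Ctrl-siRNA replicate 1). The differences of HSPA9 (-0.21, adjusted p = 0.0505) and LONP1 (-0.43, adjusted p = 0.0995) did not pass the test. With the replicate number as a block, the HSPA9 difference had an adjusted p of 0.0272. For HSPE1, CLPP, ATF5 and YME1L1 the differences were -0.13, 0.18, 0.05 and -0.13, with standard errors of 0.176, 0.158, 0.175 and 0.101 in that order. None of these 4 passed the test, which does not show that the responses were equal.

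Under Ctrl-siRNA the lines already held different levels of these genes. In HepG2 relative to Huh7, 7 genes were higher and 1, YME1L1, was lower, where 31.7% of all genes tested were higher and 32% lower. HSPD1 was 2.59-fold higher in HepG2 (log2 difference 1.37, standard error 0.079, adjusted p = 2.86e-09) and ATF5 1.96-fold higher (0.97, standard error 0.122, adjusted p = 8.53e-06). LONP1 was 1.65-fold, HSPE1 1.53-fold, DNAJA3 1.39-fold and HSPA9 1.18-fold higher in HepG2. YME1L1 stood in HepG2 at 0.629 times its Huh7 level (log2 difference -0.67, standard error 0.072, adjusted p = 1.82e-06). AFG3L2 differed by 0.01 (standard error 0.0615, adjusted p = 0.877) and CLPP by 0.23 (standard error 0.113, adjusted p = 0.0881). The CLPX difference of 0.22 (adjusted p = 0.0495) was lost in 14 of 19 alternatives, and without HepG2 Ctrl-siRNA replicate 3 it was 0.13 (adjusted p = 0.199). With 1 line of each kind, these values compare 2 sets of cultures.

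Per kilobase of the union of annotated exons, HSPD1 mRNA was the most abundant of the 10 in all 4 groups and HSPA9 mRNA came next. That union is 1823 bases for HSPE1, 9782 for HSPA9 and 7336 for YME1L1, against 557, 4404 and 4191 in their main transcripts. The places of HSPE1, HSPA9 and YME1L1 below HSPD1 therefore depend on the length chosen. HSPD1 stood at 231 ± 17.4 CPM per kilobase in HepG2 with UBL5 siRNA and 201 ± 17.7 with Ctrl-siRNA, and at 112 ± 3.57 in Huh7 with UBL5 siRNA and 77.8 ± 5.17 with Ctrl-siRNA (SD, n = 3 each). HSPD1 alone took 49.5% to 52.5% of the reads of the 10 genes in HepG2 with UBL5 siRNA and 44.3% to 48.3% with Ctrl-siRNA. In Huh7 its share was 31.3% to 32.2% with UBL5 siRNA and 26.5% to 28.9% with Ctrl-siRNA. With UBL5 siRNA, the order in HepG2 ran HSPD1, HSPA9, HSPE1, YME1L1, LONP1, CLPX, AFG3L2, DNAJA3, CLPP and ATF5. The libraries of YME1L1 overlapped those of LONP1, those of LONP1 overlapped CLPX, and those of DNAJA3 overlapped CLPP. With Ctrl-siRNA in HepG2 the order was HSPD1, HSPA9, LONP1, HSPE1, YME1L1, DNAJA3, CLPX, AFG3L2, ATF5 and CLPP, where LONP1 overlapped HSPE1, DNAJA3 overlapped CLPX, and AFG3L2 overlapped ATF5. CLPP, at 5.86 ± 0.501, was therefore the lowest with Ctrl-siRNA, and ATF5, at 6.44 ± 0.94, was the lowest with UBL5 siRNA.

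By these union lengths the third place in Huh7 belonged to YME1L1, at 65.1 ± 0.121 CPM per kilobase with UBL5 siRNA and 54.1 ± 1.41 with Ctrl-siRNA (SD, n = 3 each). The order with UBL5 siRNA was HSPD1, HSPA9, YME1L1, HSPE1, LONP1, CLPX, AFG3L2, DNAJA3, CLPP and ATF5, in which LONP1 overlapped CLPX. With Ctrl-siRNA it was HSPD1, HSPA9, YME1L1, HSPE1, LONP1, CLPX, DNAJA3, AFG3L2, ATF5 and CLPP, in which HSPE1 overlapped LONP1. In both lines, therefore, ATF5 and CLPP changed places at the foot of the order between the siRNAs. ATF5 stood at 3.19 ± 0.376 with UBL5 siRNA and 5.84 ± 0.26 with Ctrl-siRNA in Huh7, and CLPP at 7.63 ± 0.445 with UBL5 siRNA and 4.99 ± 0.259 with Ctrl-siRNA (CPM per kilobase, SD, n = 3 each).

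**Figure D3:**
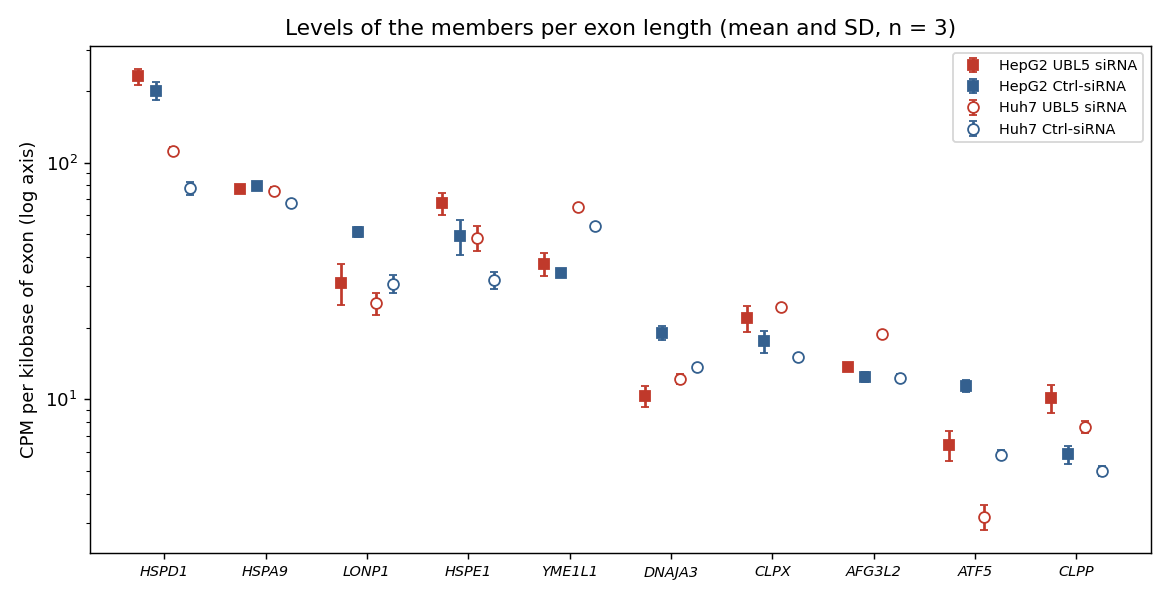
Mean level of each gene in CPM per kilobase of exon (vertical log axis) with the SD of 3 libraries, in HepG2 (filled squares) and Huh7 (open circles) with UBL5 siRNA (red) or Ctrl-siRNA (blue). HSPD1 is highest in every group, at 231 and 201 in HepG2 and 112 and 77.8 in Huh7 (UBL5 siRNA, then Ctrl-siRNA), and ATF5 and CLPP are the lowest.

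Genes around these 10 were read from 7 lists, and where they overlap with another gene by over 20% of their exon bases this is said. The lists were written from general knowledge with earlier results of these data known. Their counts stand beside the shares of all genes tested, 16.4% higher and 20% lower in HepG2 and 34.7% higher and 36.4% lower in Huh7. Some counts lie near those shares, and no list was tested as a set. Of 16 genes of import and matrix folding, 3 were higher and 3 lower in HepG2 (median log2 fold change -0.07), and 9 were higher and 2 lower in Huh7 (median 0.30). TIMM17B, a part of the inner membrane import channel, rose in both lines (log2 fold change 0.78 in HepG2, adjusted p = 0.000753, and 0.84 in Huh7, adjusted p = 2.23e-09). TOMM22 and TOMM70, receptors of the outer membrane, rose as well, by 0.39 and 0.24 in HepG2 (adjusted p = 0.0261 and 0.0294) and by 0.60 and 0.51 in Huh7 (adjusted p = 4.55e-08 and 3.58e-08). Their HepG2 calls were lost without UBL5 siRNA replicate 1 for TOMM22 (adjusted p = 0.0853) and without 4 of the 6 single libraries for TOMM70 (Ctrl-siRNA replicates 2 and 3, UBL5 siRNA replicates 2 and 3, adjusted p up to 0.113). A set of genes that serve HSPA9 or the matrix was chosen after their values were seen. GRPEL1, the nucleotide exchange factor of mortalin, had a log2 fold change of -0.07 in HepG2 (adjusted p = 0.581) and rose by 0.68 in Huh7 (adjusted p = 2.51e-07). TIMM44, which tethers mortalin to the import channel, had -0.08 in HepG2 (adjusted p = 0.497) and rose by 0.54 in Huh7 (adjusted p = 3.74e-07). TRAP1, the mitochondrial HSP90, fell by 0.80 on the log2 scale in HepG2 (adjusted p = 0.000736) and had -0.09 in Huh7 (adjusted p = 0.125), and it shares 28.5% of its exon bases with other genes. The HepG2 minus Huh7 differences of these genes were -0.72 for GRPEL1 (adjusted p = 0.000865), -0.59 for TIMM44 (adjusted p = 0.000705) and -0.68 for TRAP1 (adjusted p = 0.00147). That of TOMM70 was -0.24 (adjusted p = 0.0323), and it was lost with upper-quartile scaling and without 9 of the 12 single libraries (adjusted p up to 0.121).

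Of 17 other mitochondrial proteases and scaffolds, 2 were higher and 7 lower in HepG2 (median -0.28), and 4 were higher and 10 lower in Huh7 (median -0.25). PMPCB, the catalytic subunit of the presequence peptidase, fell in both lines (-0.67 in HepG2, adjusted p = 0.00274, and -0.75 in Huh7, adjusted p = 2.32e-09). IMMP2L, an inner membrane peptidase, had -0.28 in HepG2 (adjusted p = 0.364) and -1.40 in Huh7 (adjusted p = 1.26e-07). PHB1, a prohibitin that forms rings around the m-AAA protease, rose by 0.36 in HepG2 (adjusted p = 0.0173) and 0.53 in Huh7 (adjusted p = 4.27e-07). PHB2, the other prohibitin of the list, chosen after its values were seen, did not rise. It had 0.06 in HepG2 (adjusted p = 0.654) and fell by 0.13 in Huh7 (adjusted p = 0.0222). OMA1, the stress-activated protease that signals to ATF4, was chosen after its values were seen and fell in both lines (-0.64 in HepG2, adjusted p = 0.0129, and -0.94 in Huh7, adjusted p = 8.96e-07). The HepG2 call of OMA1 was lost without Ctrl-siRNA replicate 1 or 2 or UBL5 siRNA replicate 2 (adjusted p up to 0.063).

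Among regulators of the response, 1 of 12 was higher and 3 lower in HepG2 (median -0.21), and 6 of 14 were higher and 4 lower in Huh7 (median 0.12). FOXO3, a forkhead factor of mitochondrial stress signaling, rose in both lines (1.16 in HepG2, adjusted p = 0.000282, and 0.86 in Huh7, adjusted p = 1.3e-08). SATB1, a chromatin-organizing factor, was tested in Huh7 alone and fell there by 1.29 on the log2 scale (adjusted p = 1.96e-07). The mRNAs of ATF4 and of CHOP, whose gene is DDIT3, were chosen after their values were seen. ATF4 had -0.02 in HepG2 (adjusted p = 0.903) and 0.16 in Huh7 (adjusted p = 0.0192). DDIT3 fell by 0.51 in HepG2 (adjusted p = 0.0468) and had 0.04 in Huh7 (adjusted p = 0.759), and 39.6% of its exon bases overlap other genes. HSF1, the heat shock factor, also chosen after its values were seen, had -0.21 in HepG2 (adjusted p = 0.21) and rose by 0.54 in Huh7 (adjusted p = 0.0267). Single libraries decided some of these calls: without 1 of them the adjusted p reached 0.217 for DDIT3 in HepG2 (lost without any library but UBL5 siRNA replicate 3), 0.0709 for HSF1 in Huh7 (lost without Ctrl-siRNA replicate 2 or UBL5 siRNA replicate 2 or 3), and the ATF4 call in Huh7 was lost without Ctrl-siRNA replicate 1 or 2 or UBL5 siRNA replicate 1, with an adjusted p of up to 0.178 over all alternatives.

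Of the outputs of ATF4 and CHOP, 3 of 15 were higher and 8 lower in HepG2 (median -0.40), and 1 of 16 was higher and 9 lower in Huh7 (median -0.23). PCK2, the mitochondrial phosphoenolpyruvate carboxykinase, fell by 1.13 on the log2 scale in HepG2 (adjusted p = 0.000569) and by 1.54 in Huh7 (adjusted p = 1.65e-11). PYCR1, of mitochondrial proline synthesis, fell by 0.67 in HepG2 (adjusted p = 0.0225) and by 0.79 in Huh7 (adjusted p = 2.88e-08), and overlaps other genes over 29.7% of its exon bases. VLDLR, a lipoprotein receptor, fell by 1.05 in HepG2 (adjusted p = 0.00236) and by 0.98 in Huh7 (adjusted p = 3.5e-07). The outputs that rose in HepG2, named after their values were seen, were GDF15 (1.56, adjusted p = 0.00479), SESN2 (0.94, adjusted p = 0.000602) and DDIT4 (0.38, adjusted p = 0.0464), which respond to further stress pathways as well, and in Huh7 it was TRIB3 (0.80, adjusted p = 0.00903). In Huh7, GDF15 had 0.62 (adjusted p = 0.362) and SESN2 0.13 (adjusted p = 0.313). With the replicate block, whose pairing is unclear in Huh7, both passed there (adjusted p = 2.05e-09 for GDF15). SESN2 also passed there without Ctrl-siRNA replicate 3. TRIB3 had -0.0067 in HepG2 (adjusted p = 0.97). DDIT4 had 0.81 in Huh7 (adjusted p = 0.0608) with groups that did not overlap. It passed there with the Wald test of DESeq2, with the replicate block, in the fit over 12 libraries and without Ctrl-siRNA replicate 3. Without single HepG2 libraries the adjusted p reached 0.147 for DDIT4 (lost without Ctrl-siRNA replicate 1 or 3 or UBL5 siRNA replicate 1 or 2) and 0.0763 for PYCR1 (lost without Ctrl-siRNA replicate 1 or 2 or UBL5 siRNA replicate 2).

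Mitochondrial antioxidant genes had 1 of 7 higher and 2 lower in HepG2 (median 0.07) and 1 higher and 4 lower in Huh7 (median -0.25). SOD2, the matrix superoxide dismutase, rose by 0.65 in HepG2 (adjusted p = 0.00255) and fell by 0.84 in Huh7 (adjusted p = 4.88e-10). TXNRD2 and TXN2, which form the matrix thioredoxin system, fell in both lines, by 0.75 and 0.31 in HepG2 (adjusted p = 0.0028 and 0.0468) and by 0.72 and 0.56 in Huh7 (adjusted p = 8.11e-08 and 4.82e-07). The HepG2 call of TXN2 was lost without Ctrl-siRNA replicate 1 or 2 or UBL5 siRNA replicate 2 or 3 and with other scalings (adjusted p up to 0.204).

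Chaperones of other compartments served to set the mitochondrial ones beside. Of 13 ER chaperone genes, 1 was called in HepG2, where it was higher (median 0.03), and 2 were higher and 3 lower in Huh7 (median -0.04). HYOU1, an ER chaperone of the HSP70 family, rose by 0.39 in HepG2 (adjusted p = 0.031) and by 0.42 in Huh7 (adjusted p = 3.73e-06), and its HepG2 call was lost without Ctrl-siRNA replicate 1 or any UBL5 siRNA library (adjusted p up to 0.0819). CALR and PDIA4, which fold secretory proteins, had -0.15 and -0.14 in HepG2 (adjusted p = 0.245 and 0.31) and fell by 0.52 and 0.21 in Huh7 (adjusted p = 4.55e-07 and 0.00108). Of 13 cytosolic chaperone genes, 4 were higher and 2 lower in HepG2 (median 0.01), and 7 were called in Huh7, each of them higher (median 0.36). HSPA4 and HSP90AA1, a cytosolic HSP70 relative and the inducible HSP90, rose in both lines, by 0.57 and 0.38 in HepG2 (adjusted p = 0.0013 and 0.00952) and by 0.90 and 0.66 in Huh7 (adjusted p = 5.69e-10 and 3.48e-06). STIP1, which links HSP70 to HSP90, had -0.20 in HepG2 (adjusted p = 0.0748) and rose by 0.56 in Huh7 (adjusted p = 1.44e-05). The 10 mitochondrial genes had a median of 0.13 beside the cytosolic 0.01 in HepG2, and of 0.42 beside 0.36 in Huh7.

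**Figure D4:**
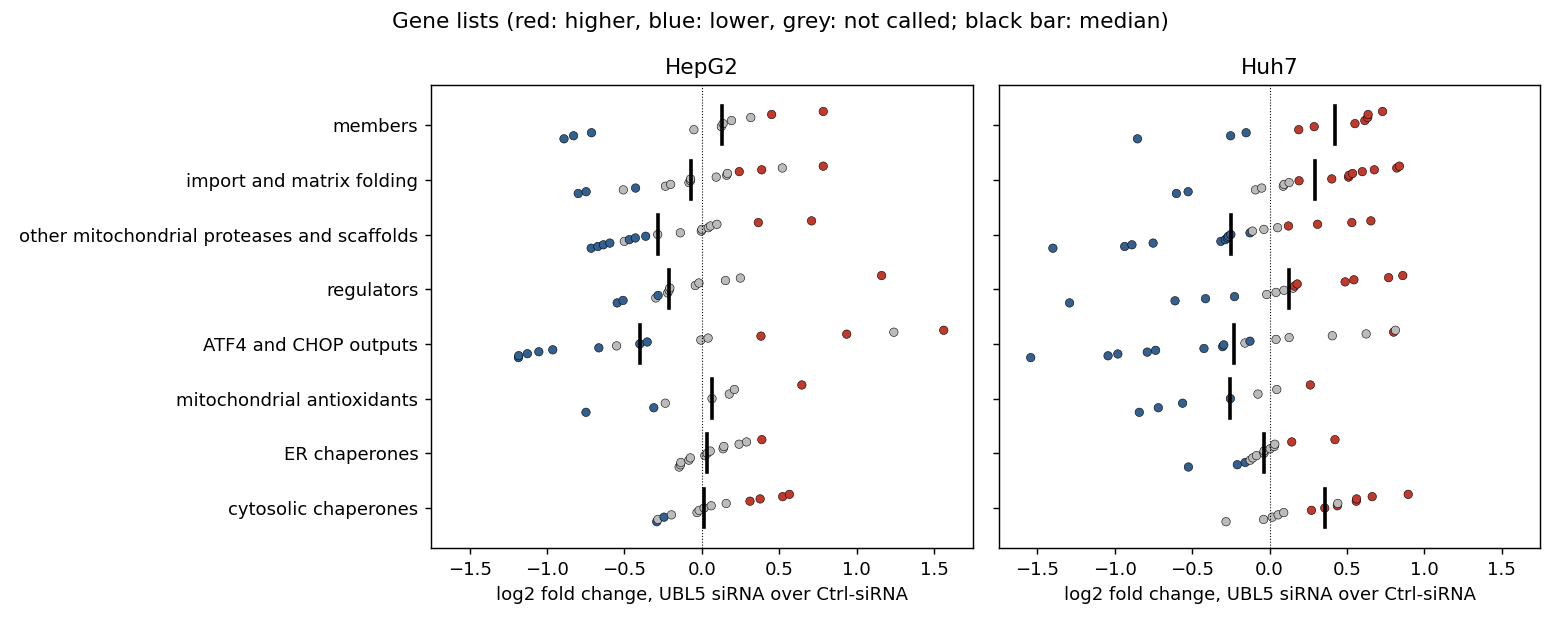
Log2 fold change with UBL5 siRNA over Ctrl-siRNA (horizontal axes) of every tested gene in the 10 genes described (members) and in 7 further lists, in HepG2 (left) and Huh7 (right). Points are genes, red where higher, blue where lower and grey where not called, and black bars are medians. The member median is 0.13 in HepG2 and 0.42 in Huh7, and that of ATF4 and CHOP outputs is -0.40 in HepG2 and -0.23 in Huh7.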

How the data were processed

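Strand-specific poly-A libraries were read from one end over 50 bases. Per the labels and the study's methods, the authors used bcl2fastq for demultiplexing, FastQC 0.11.9 for read quality, STAR 2.7.6a for alignment (GRCh38) and featureCounts for gene counts. The version of featureCounts, its annotation and its strand setting are not given in the sources used here. The deposited tables hold raw counts per gene and library, 1 pair of tables per line divided by the direction of the authors' fold change. Their other columns hold the authors' DESeq2 1.30.0 comparison (mean, fold change, error, statistic and p-values) and were not used. All 12 count columns were matched to samples, and 0 were left unmatched. The authors' filter on low counts is not given in the sources used here.

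Counts were analysed in R 4.3.3 with edgeR 4.0.16 (filterByExpr with min.count 10 and min.total.count 15, TMM, robust quasi-likelihood F test within each line, Benjamini-Hochberg over all genes tested, threshold 0.05). The difference between lines and the Ctrl-siRNA contrast of the lines came from 1 fit over 12 libraries. Ratios were compared by exact two-sided permutation tests of log2 ratios. Levels between genes are CPM, scaled over all 12 libraries, per kilobase of the union of GENCODE 44 exons on GRCh38. Promoter windows are from RefSeq, searched on both strands for letters that were chosen with these windows in view. Tables and figures were made with Python 3.11.15, pandas 2.3.3 and matplotlib 3.10.9. Alternatives were DESeq2 size factors, upper-quartile scaling, no filter, a mean count of at least 100, DESeq2 1.42.0 with its Wald test, the replicate number as a block, 1 fit over 12 libraries and leaving out each library. Chosen after seeing the data were leaving out both HepG2 libraries numbered 3 and adding pseudogene reads. The column names of both those libraries lack a suffix that the others carry, whose meaning the sources used here do not give. Named genes are the 10 genes, UBL5 and the 3 genes of smallest p in each list, with any others given as chosen after their values were seen. One gene that this rule names is not reported here. The genes and lists were chosen with earlier results of these data known.

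Residuals of HepG2 libraries with one replicate number correlated at 0.26, 0.17 and 0.17 across genes, so that the block pairs them. Those of Huh7 correlated at 0.27, 0.014 and 0.36. In Huh7, libraries numbered 1 and 3 thus correlated at least as strongly as the HepG2 pairs. Those numbered 2 did not, with 0.014 beside 0.068 and 0.077 between numbers 1 and 2. Whether the Huh7 libraries were paired is therefore unclear, and the main tests used no block in either line. Pairs of libraries of 1 group differed by a chi-square of 3.55 to 33.9 per degree of freedom, so none was a duplicate. The tests were tried on simulated counts with known changes, and the outcome is not given here. The 10 genes had 184 to 47166 reads per library.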

Additional observations from a re-analysis of the deposited data

Results flagged for a closer look

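Several genes responded differently in HepG2 and Huh7 in a test of the difference itself (the interaction of line and siRNA in the edgeR fit over 12 libraries), and each value here is the HepG2 log2 fold change minus the Huh7 log2 fold change. Among the mitochondrial unfolded protein response genes they were DNAJA3 (-0.71), AFG3L2 (-0.47), CLPX (-0.39) and HSPD1 (-0.33). DNAJA3 fell further in HepG2, and AFG3L2, CLPX and HSPD1 rose in Huh7. In HepG2 these 3 missed the threshold, but with the replicate block HSPD1 (adjusted p = 0.032) and CLPX (adjusted p = 0.00791) passed, and CLPX did so in 10 of 15 alternatives. All of these HepG2 changes lay below the Huh7 changes.

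Among the surrounding genes, the import and folding genes TOMM70 (-0.24), GRPEL1 (-0.72), TIMM44 (-0.59) and TRAP1 (-0.68), the regulator HSF1 (-0.73), the ATF4 output TRIB3 (-0.78) and the cytosolic cochaperone STIP1 (-0.73) also lay lower in HepG2. The opposite held for SOD2 (1.52), IMMP2L (1.15), SESN2 (0.84) and CALR (0.41). These are not all the list members that passed this test. Of 16 ATF4 and CHOP outputs, 3 lay lower and 1 higher in HepG2, and of 7 antioxidant genes 2 lay higher and 0 lower. The TOMM70 difference was lost in 10 alternatives (adjusted p up to 0.121), 9 of them single libraries left out, and that of CALR without Huh7 UBL5 siRNA replicate 3 (adjusted p = 0.0504). SOD2 was the only named gene called in opposite directions in the 2 lines. Of these genes, GRPEL1, TIMM44, TRAP1, HSF1, SESN2 and TRIB3 were chosen after their values were seen. Of all genes tested, 21.6% differed between the lines, and how these divide by direction was not counted. The causes of these differences were not tested.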

How the results depend on the processing

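Over the planned and added alternatives, the 10 genes kept their side of the threshold in 135 of 150 values in HepG2, 131 of 140 in Huh7, 163 of 190 for the difference between the lines and 174 of 190 for the Ctrl-siRNA contrast of the lines. In HepG2 the count of these genes called higher was 2. It was 3 with DESeq2 size factors, upper-quartile scaling, no filter, a mean count of at least 100 or the Wald test of DESeq2. Without both HepG2 libraries numbered 3 it was also 3. It was 4 with the replicate block (HSPD1 and CLPX added) or in the fit over 12 libraries, and 1 to 3 when single libraries were left out. The count called lower in Huh7 was 3, with 2 in the Wald test and 1 in the fit over 12 libraries. When single libraries were left out it was 1 to 3. The count that differed between the lines was 4, and 5 with the replicate block (HSPA9 added) or the Wald test. It was 3 with a mean count of at least 100, and 2 with DESeq2 size factors, upper-quartile scaling or no filter. When single libraries were left out it was 2 to 4. Over all genes, leaving out single libraries gave 3823 to 7271 calls in HepG2 against 5736, the lowest without UBL5 siRNA replicate 2, and the cause was not tested. The log2 change of the HSPD1 to HSPE1 ratio in Huh7, -0.06, turned to 0.024 without UBL5 siRNA replicate 1, and ran from -0.13 to 0.024 over single libraries left out. With the replicate block, 6388 genes were called in HepG2 and 12705 in Huh7, where the pairing of the libraries was unclear. No call of the 10 genes changed within a line other than HSPD1 and CLPX in HepG2. Scaling moved the median of all genes by under 0.1 on the log2 scale. The lowest count of the 10 genes was 184 reads, for ATF5, where counting error weighs most.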
